A study of Saccharomyces cerevisiae with 13 samples.

Results

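The step from G1 to S and G2 was followed in budding yeast (Saccharomyces cerevisiae) of the W303 background labelled yox1yhp1, by setting 4 arrays taken at 30, 40, 90 and 100 min after release from alpha factor against 4 arrays taken at 10, 20, 70 and 80 min. These are 8 of the 13 two-colour arrays of the series, and they cover the step once in each of 2 cell cycles. They were chosen by their time labels, with earlier results of these data known. All cells of this time course carried the yox1yhp1 genotype, were held in G1 with alpha factor, the mating pheromone that arrests cells before S phase, and were then released into YEPD, a rich glucose medium. Their total RNA was labelled with Cy5 and set against Cy3-labelled RNA of an unsynchronised wild-type culture, grown overnight in the same medium to an optical density given in the labels. The labels do not say what kind of mutation each gene carries. Below, the arrays at 10, 20, 70 and 80 min, taken as G1 to early S, are called the G1 arrays. Those at 30, 40, 90 and 100 min are called the S/G2 arrays. These names rest on the times only, and DNA content was not used here.

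Of 6205 genes in the table, 5842 had a value on all 8 arrays and were tested. The other 363 lacked at least 1 value. A value is the log10 ratio of the sample to the reference, after each array was centred on its median, so that 1 stands for 10-fold. The base of 10 was inferred from the values. The step of a gene is the mean of its S/G2 values minus the mean of its G1 values, with both cycles weighted equally. The reference is the same on each array and cancels in the step. There were no replicates: each time point is 1 array, all arrays follow 1 culture, and the error of a step comes from the difference between neighbouring arrays of the same phase and cycle. The p-values therefore do not measure the spread between cultures. The RNA came from whole cultures, in which a change in the share of cells in a phase and a change in RNA per cell cannot be told apart.

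In budding yeast, transcription passes along the cycle in waves. The factors SBF (Swi4 with Swi6) and MBF (Mbp1 with Swi6) switch on genes of budding and of DNA replication late in G1. Histone genes follow in S phase, and the forkhead factors with Mcm1 and Ndd1 then switch on the CLB2 cluster, the genes of the mitotic cyclin Clb2 and its partners. Swi5 acts at the end of mitosis on genes of cell separation. Yox1 and Yhp1 are repressors that act with Mcm1 on genes of the M/G1 interval, SWI4 among them.

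The median levels of these groups were highest at successive times. The 17 measured MBF targets and regulators had medians of 0.19, 0.30, 0.07 and -0.15 at 10, 20, 30 and 40 min, and 0.07, 0.13, 0.08 and -0.06 at 70, 80, 90 and 100 min. The 18 SBF targets and G1 cyclins had medians of 0.05, 0.14, 0.06 and -0.07 at 10, 20, 30 and 40 min, and 0.05, 0.14, 0.10 and -0.06 at 70, 80, 90 and 100 min. Both groups were highest at 20 min and at 80 min among these arrays, and had passed below 0 by 40 and 100 min. The 9 histone genes had medians of -0.50, 0.10, 0.29 and 0.03 at 10, 20, 30 and 40 min, and -0.33, 0.07, 0.23 and 0.06 at 70, 80, 90 and 100 min. Their lowest arrays were therefore 10 and 70 min, while the 20 and 80 min arrays, which count as G1 here, lay above the 40 and 100 min arrays. The 16 genes of the CLB2 cluster had medians of -0.30, -0.20, 0.0013 and 0.24 at 10, 20, 30 and 40 min, and 0.02, -0.09, -0.01 and 0.17 at 70, 80, 90 and 100 min, and were highest at 40 and 100 min among these 8 arrays. The G1 group thus joins an array with low histone RNA to one with high histone RNA in each cycle.

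**Figure D1:**
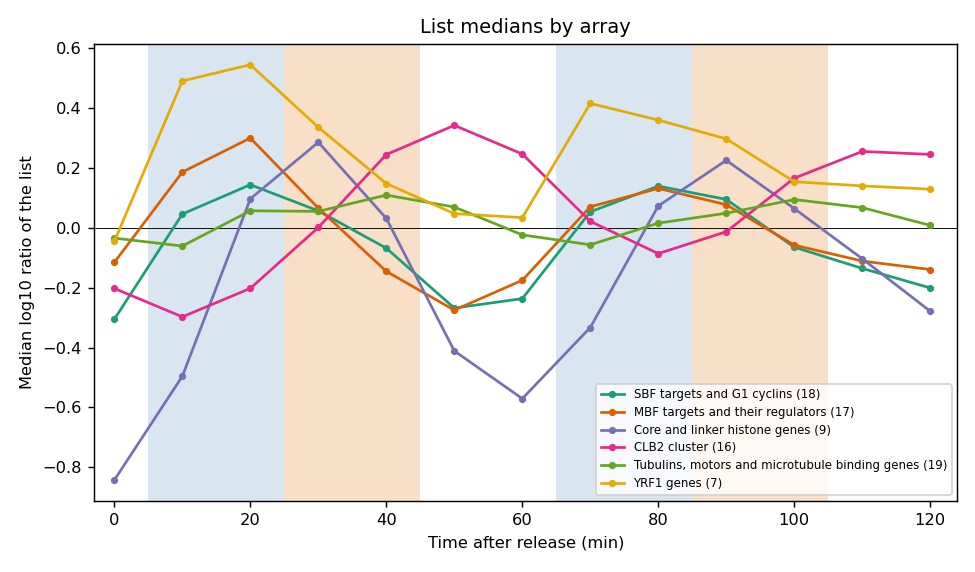
The median log10 ratio to the reference (y axis) of 6 gene groups on each of the 13 arrays is plotted against time after release in minutes (x axis), with the number of measured genes in brackets. Blue bands mark the G1 times and orange bands the S/G2 times. The MBF and SBF groups are highest at 20 and 80 min, the histone genes at 30 and 90 min, and the CLB2 cluster at 50 min, with a median of 0.34.

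The genes named in the strain label gave different patterns. YHP1 was below the reference on all 8 arrays, at -0.45 and -0.34 on the G1 arrays against -0.24 and -0.16 on the S/G2 arrays of the first cycle, and -0.50 and -0.17 against -0.28 and -0.19 in the second. YOX1 was close to the reference, at 0.02 and -0.002 on the G1 arrays against 0.07 and -0.04 on the S/G2 arrays of the first cycle, and -0.18 and 0.12 against -0.0004 and -0.04 in the second. Neither gene passed the test of the step: it was 0.15 ± 0.065 (SE) for YHP1 (adjusted p = 0.246, limma with Benjamini-Hochberg adjustment over all genes) and 0.0052 ± 0.059 for YOX1 (adjusted p = 0.976). Which stretch of YOX1 the array holds is not stated in the labels, nor is the kind of mutation in either gene. The level of neither gene therefore checks the label, and every result below is that of the cells labelled yox1yhp1.

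Across all genes, 20 of 5842 (0.342%) passed the test of the step at an adjusted p under 0.05. Of these, 6 (0.103%) were higher and 14 (0.24%) lower on the S/G2 arrays. In the counts below, genes that rose or fell are those that passed this test. At an unadjusted p under 0.05 there were 567 genes higher and 573 lower. The 20 genes differed by 1.499- to 3.13-fold, had adjusted p-values of 0.0255 to 0.0498, and had steps of the same sign in both cycles with no overlap between the G1 and S/G2 arrays of either cycle. The test picks genes for a large step against the spread of these same arrays. The shared sign and the lack of overlap are therefore not a separate check of the 20 genes. These calls lie close to the threshold and depend on single arrays. Leaving out the array of 10, 40 or 100 min left no gene called. With the 70 min array left out 4 genes were called, 2 of them among the 20, with 90 min left out 11 (7 among the 20), and with 80 min left out 19 (6 among the 20). With 30 min left out 123 were called (19 of the 20), and with 20 min left out 308 (all 20). When the 4 mitotic arrays were added so that 12 arrays gave the spread, the same contrast called 106 genes higher (1.81%) and 114 lower (1.95%), including 18 of the 20.

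A count that needs no p-value was added after the values had been seen. In 499 genes (8.54% of 5842) both S/G2 arrays lay above both G1 arrays in each cycle, and in 408 genes (6.98%) both lay below in each cycle. With a step of at least 1.5-fold as well, 36 genes (0.616%) were higher and 78 (1.34%) lower. The 499 and 408 genes, with no limit on fold, are called non-overlapping genes below. Counts of them in gene groups can be read against the 8.54% and 6.98% of all genes. In a small group, a count near these shares says nothing about the group. Genes that are described without having passed the test, other than the 1 of largest step in each group, were picked after their values had been seen. The median step over all 5842 genes was 0.0016, with 3002 above 0 and 2840 below. The medians and signs of gene groups can be read against these values.

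**Figure D2:**
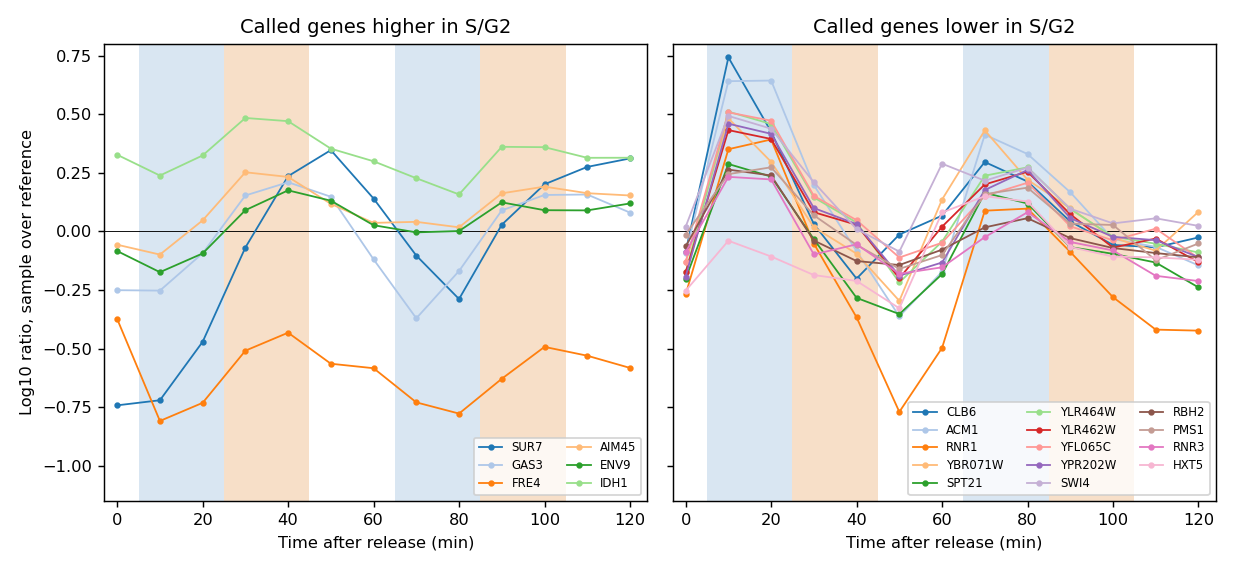
The log10 ratio to the reference (y axis) of the 6 genes called higher (left) and the 14 called lower (right) on the S/G2 arrays is plotted against time after release in minutes (x axis), 1 line a gene and 1 point an array. Blue bands mark the G1 times and orange bands the S/G2 times. SUR7 climbs from -0.72 at 10 min to 0.24 at 40 min, and CLB6 drops from 0.74 to -0.20 over the same arrays.

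CLB6, ACM1, SWI4 and YBR071W were among the genes that fell from the G1 to the S/G2 arrays. CLB6, an S-phase cyclin that helps to fire replication origins, stood at 0.74 and 0.43 on the G1 arrays against 0.03 and -0.20 on the S/G2 arrays of the first cycle, and 0.30 and 0.21 against 0.04 and -0.06 in the second. Its step was -0.47 ± 0.072 (SE), a 2.92-fold fall (adjusted p = 0.0498), and in neither cycle did the groups overlap. ACM1, an inhibitor of the Cdh1 form of the anaphase-promoting complex, was at 0.64 and 0.64 on the G1 arrays against 0.20 and -0.08 on the S/G2 arrays of the first cycle, and 0.41 and 0.33 against 0.17 and -0.03 in the second. It fell 2.79-fold (step -0.45 ± 0.063, adjusted p = 0.0467). SWI4, the DNA-binding subunit of SBF and itself a gene of the M/G1 interval, was at 0.49 and 0.44 on the G1 arrays against 0.21 and 0.0098 on the S/G2 arrays of the first cycle, and 0.22 and 0.27 against 0.10 and 0.03 in the second. It fell 1.85-fold (step -0.27 ± 0.043, adjusted p = 0.0498), but gave an adjusted p of 0.0519 with 12 arrays. YBR071W, for which the reference table gives no other name, was at 0.48 and 0.30 on the G1 arrays against 0.02 and -0.10 on the S/G2 arrays of the first cycle, and 0.43 and 0.22 against 0.10 and -0.03 in the second and fell 2.29-fold (adjusted p = 0.0498).

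Of the 17 measured MBF targets and regulators, 4 were called lower (CLB6, ACM1, RNR1 and SPT21) and none higher. Of these 17, 7 (41.18%) were non-overlapping and lower against 1 (5.882%) higher. The group's median step was -0.19, or 1.53-fold. The member that was non-overlapping and higher was MBP1, the DNA-binding subunit of MBF, with a step of 0.11 ± 0.039 (adjusted p = 0.158). NRM1, a repressor that closes the MBF wave and is itself an MBF target, also had a step above 0, 0.12 ± 0.041 (adjusted p = 0.170), with -0.06 and 0.06 on the G1 arrays against 0.05 and 0.22 on the S/G2 arrays of the first cycle, and -0.02 and -0.03 against 0.06 and 0.09 in the second. SWI6, the subunit shared by SBF and MBF, and PDS1, securin, were the other members above 0, at 0.07 ± 0.049 and 0.04 ± 0.056.

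Of the 18 measured SBF targets and G1 cyclins, 1 was called lower (SWI4) and none higher, with a median step of -0.18 (1.51-fold). Of these 18, 6 (33.33%) were non-overlapping and lower against 2 (11.11%) higher. The G1 cyclins had large steps that did not pass. CLN2 was at 0.16 and 0.13 on the G1 arrays against -0.17 and -0.46 on the S/G2 arrays of the first cycle, and 0.06 and 0.20 against 0.11 and -0.09 in the second, a step of -0.29 ± 0.066 (adjusted p = 0.0660). Its first-cycle groups were apart, while in the second cycle the 90 min value lay above the 70 min value. CLN1 gave -0.25 ± 0.057 (adjusted p = 0.0673) and PCL1, a cyclin of the Pho85 kinase, -0.24 ± 0.065 (0.0931). HO, the endonuclease of mating-type switching, stood apart in level between the cycles, at -0.64 and -0.50 on the G1 arrays against -0.66 and -0.88 on the S/G2 arrays of the first cycle, and 0.17 and 0.30 against -0.05 and -0.31 in the second, yet its S/G2 values were below its G1 values in each (step -0.31 ± 0.069, adjusted p = 0.0583). The non-overlapping members that were higher were the cell wall genes CIS3 (0.24 ± 0.063, adjusted p = 0.0882) and GAS1 (0.14 ± 0.045, 0.142). MSA2, which encodes a partner of SBF and MBF, was in neither list. It gave one of the largest steps, -0.43 ± 0.071, with 0.75 and 0.64 on the G1 arrays against 0.29 and 0.04 on the S/G2 arrays of the first cycle, and 0.55 and 0.32 against 0.21 and 0.02 in the second, at an adjusted p of 0.0503.

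Genes that supply deoxynucleotides split. RNR1, the large subunit of ribonucleotide reductase, was at 0.35 and 0.39 on the G1 arrays against -0.05 and -0.37 on the S/G2 arrays of the first cycle, and 0.09 and 0.10 against -0.09 and -0.28 in the second. It fell 2.69-fold (step -0.43 ± 0.066, adjusted p = 0.0498). RNR3, an alternative large subunit known for its induction by DNA damage, fell 1.58-fold (step -0.20 ± 0.03, adjusted p = 0.0498), and most of that lay in the first cycle, with -0.30 against -0.09 in the second. The small subunits RNR2 and RNR4 gave steps of 0.01 ± 0.025 and -0.01 ± 0.032. SML1, the protein inhibitor of ribonucleotide reductase, went the other way, at -0.10 and -0.13 on the G1 arrays against 0.10 and 0.31 on the S/G2 arrays of the first cycle, and -0.04 and -0.12 against 0.05 and 0.15 in the second. Its step of 0.25 ± 0.047 (1.77-fold) was non-overlapping in both cycles and had an adjusted p of 0.0540. Of the 9 measured genes of this group 2 were called lower and none higher. Steps were above 0 in 4 and below 0 in 5, with a median of -0.01.

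The replication fork group held 33 measured genes, of which none passed the test. Of these, 13 (39.39%) were non-overlapping and lower and none higher, 30 had a step below 0, and the median was -0.08 (1.21-fold). POL12, a subunit of DNA polymerase alpha and primase, had the largest step, -0.32 ± 0.06 (adjusted p = 0.0540), from 0.33 and 0.29 on the G1 arrays against 0.03 and -0.27 on the S/G2 arrays of the first cycle, and 0.10 and 0.17 against -0.03 and -0.14 in the second. Its values were above 0 on every G1 array, and on the S/G2 arrays only the 30 min value was. PRI2, a primase subunit, gave -0.26 ± 0.046 (0.0503), TOF1, which guards paused forks, -0.27 ± 0.048 (0.0517), and CDC9, the DNA ligase, -0.25 ± 0.059 (0.0690). POL32, a subunit of polymerase delta, had a step of -0.21 ± 0.095 that rests on 1 array: its value was 0.46 at 80 min and between -0.11 and 0.05 on the other 7. With 12 arrays 7 of the 33 passed, all lower. The licensing genes, which load the Mcm2-7 helicase on origins, did not share this pattern. Of 13 measured, none was called, 2 (15.38%) were non-overlapping and higher and 1 (7.692%) lower, and the median was -0.0055.

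Among 17 DNA repair genes, PMS1, a mismatch repair protein, fell 1.58-fold (step -0.20 ± 0.032, adjusted p = 0.0498). None was called higher, and 4 (23.53%) were non-overlapping and lower. PMS1 was at 0.24 and 0.27 on the G1 arrays against 0.07 and -0.06 on the S/G2 arrays of the first cycle, and 0.16 and 0.19 against 0.03 and 0.03 in the second. The cohesin group, whose ring holds sister chromatids together, had 9 measured members, none called, 2 (22.22%) non-overlapping and lower, and a median of -0.06. PDS5, a cohesin regulator, had its largest step among members tested, -0.21 ± 0.076 (adjusted p = 0.170). MCD1, the kleisin subunit of the ring, lacked its 80 min value and so was not among the 5842. With genes that had at least 3 of 4 values in each phase, its step was -0.31 ± 0.075 (adjusted p = 0.0813), and that of SMC3, another ring subunit, which lacked its 90 min value, was -0.24 ± 0.054 (0.0715).

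The core and linker histone genes, which package the newly made DNA, had the largest median step of the 32 groups, 0.31 (2.03-fold), with all 9 measured members above 0, from 0.21 to 0.39. None of the 9 passed the test, and only HTA2 was non-overlapping in both cycles. HTA1, a histone H2A gene, was at -0.66 and 0.04 on the G1 arrays against 0.32 and 0.03 on the S/G2 arrays of the first cycle, and -0.41 and 0.07 against 0.20 and 0.02 in the second. Its step was 0.39 ± 0.15 (SE, 2.43-fold, adjusted p = 0.210), and in each cycle its 2 G1 arrays differed by more than the G1 and S/G2 means did. HHF2, a histone H4 gene, gave 0.31 ± 0.14 (adjusted p = 0.284) and HTB1, a histone H2B gene, 0.34 ± 0.14 (0.220). HHO1, the linker histone, was lowest of the group at 0.21 ± 0.079. Core histone genes come in pairs that encode near-identical proteins, and how far their spots tell the copies apart was not tested.

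HTZ1, the replication-independent variant H2A.Z, followed another course from the core genes. It was at -0.36 and -0.15 on the G1 arrays against 0.09 and 0.17 on the S/G2 arrays of the first cycle, and -0.14 and 0.03 against 0.06 and 0.17 in the second. The 40 and 100 min arrays were its highest, and the groups did not overlap in either cycle (step 0.28 ± 0.055, 1.89-fold, adjusted p = 0.0550). Among 19 histone chaperones and regulators, SPT21, which is needed for normal histone gene transcription, fell 2.10-fold (step -0.32 ± 0.049, adjusted p = 0.0498). None was called higher, and 5 (26.32%) were non-overlapping and lower. SPT21 was at 0.29 and 0.23 on the G1 arrays against -0.03 and -0.28 on the S/G2 arrays of the first cycle, and 0.16 and 0.12 against -0.07 and -0.10 in the second, so its levels were above 0 on the G1 arrays and below 0 on the S/G2 arrays of both cycles. ASF1, a chaperone of H3 and H4, gave -0.27 ± 0.08 (adjusted p = 0.123), and RLF2, the large subunit of chromatin assembly factor CAF-1, -0.16 ± 0.036 (0.0614). The histone gene repressors HIR1, HIR2 and HIR3 had steps between -0.07 and 0.05.

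**Figure D3:**
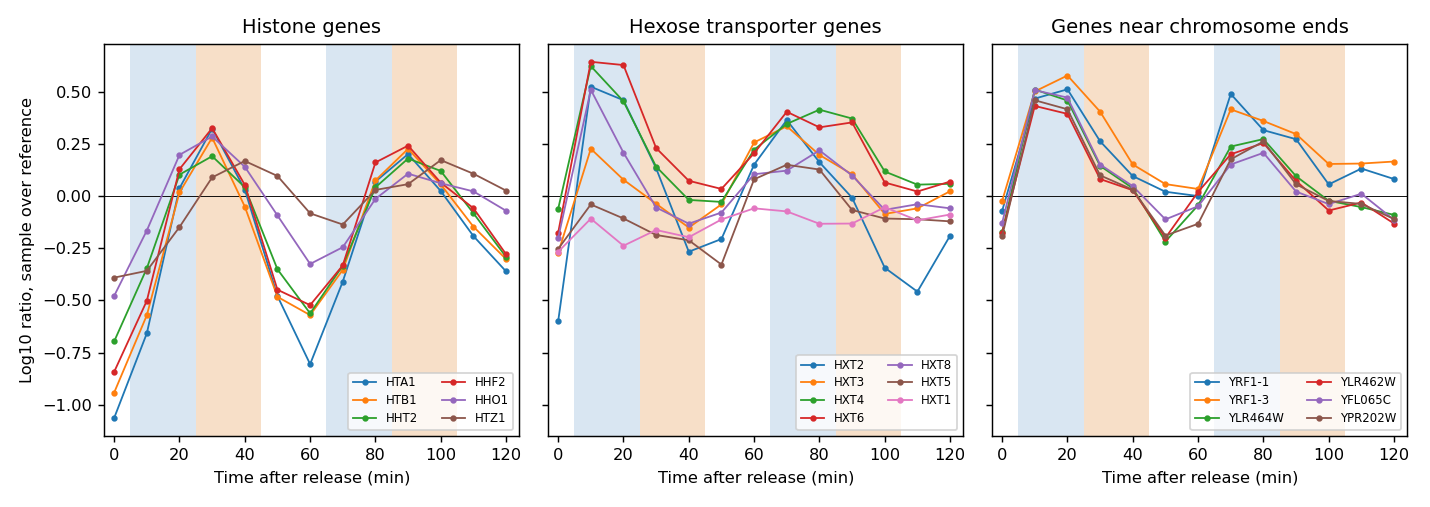
The log10 ratio to the reference (y axis) of 6 histone genes (left), 7 hexose transporter genes (middle) and 6 genes near chromosome ends (right) is plotted against time after release in minutes (x axis), 1 point an array. Blue bands mark the G1 times and orange bands the S/G2 times. HTA1 is at -0.66 at 10 min and 0.32 at 30 min, while HTZ1 is highest at 40 and 100 min, and YLR464W drops from 0.51 at 10 min to 0.04 at 40 min.

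Among genes of the spindle, 14 of 19 for tubulins, motors and microtubule binding proteins and 25 of 31 for the kinetochore and checkpoint had a step above 0. Of the 19 tubulin and motor genes, none passed the test, 8 (42.11%) were non-overlapping and higher and none lower, and the median step was 0.12 (1.31-fold). TUB1, an alpha-tubulin, was at -0.14 and 0.05 on the G1 arrays against 0.14 and 0.22 on the S/G2 arrays of the first cycle, and -0.04 and -0.02 against 0.11 and 0.17 in the second (step 0.20 ± 0.043, adjusted p = 0.0551). KIP3, a kinesin that shortens microtubules, gave 0.20 ± 0.043 (0.0567), TUB2, beta-tubulin, 0.16 ± 0.044 (0.0915) and NUM1, which anchors dynein at the cortex, 0.14 ± 0.026 (0.0517). ASE1, which bundles the midzone of the spindle, had the largest step, 0.22 ± 0.056 (adjusted p = 0.0846), but its 90 min value of -0.04 lay below its 70 min value of -0.01. With 12 arrays 5 of the 19 passed, all higher. Of 31 kinetochore and checkpoint genes, none was called, 6 (19.35%) were non-overlapping and higher and none lower, and the median was 0.04. SPC25, a subunit of the Ndc80 complex, had the largest step among them, 0.16 ± 0.036 (adjusted p = 0.0634). The 16 spindle pole body genes had a median of -0.07, with 11 below 0 and 5 above. Of these 16, 4 (25%) were non-overlapping and lower and none higher, and none was called. Their largest step in size lay above 0, that of SPC98 at 0.14 ± 0.061 (adjusted p = 0.257), while the lowest step was -0.09.

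The CLB2 cluster had the next largest median step after the histone genes, 0.25 (1.76-fold), with 15 of 16 measured members above 0. None passed the test with 8 arrays, 6 (37.5%) were non-overlapping and higher, and 6 passed with 12 arrays. CLB2, a mitotic cyclin, was at -0.62 and -0.53 on the G1 arrays against -0.21 and 0.15 on the S/G2 arrays of the first cycle, and -0.20 and -0.37 against -0.20 and 0.08 in the second. Its step was 0.39 ± 0.085 (2.43-fold, adjusted p = 0.0568, and 0.0290 with 12 arrays). CLB1, its close relative, had the largest step of the cluster, 0.41 ± 0.11 (2.55-fold, adjusted p = 0.0978), and CDC5, the polo kinase, gave 0.38 ± 0.083 (0.0568). In these genes the second array of each S/G2 pair was well above the first, as in CDC5 with -0.06 at 30 min and 0.23 at 40 min. BUD3 and BUD4, landmarks of axial budding, had 0.24 ± 0.042 (0.0503) and 0.27 ± 0.067 (0.0755).

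The first-cycle and second-cycle values of the cluster differed in size. Its median step was 0.36 in the first cycle and 0.11 in the second. CHS2, the chitin synthase of the septum, stepped by 0.58 and 0.06, and IQG1, a scaffold of the cytokinetic ring, by 0.48 and 0.10. At 70 min CHS2 was still at 0.12, against -0.55 at 10 min.

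Among the transcription factors of this stretch, FKH2, a forkhead factor of the CLB2 cluster, was at -0.27 and -0.13 on the G1 arrays against 0.03 and 0.14 on the S/G2 arrays of the first cycle, and -0.15 and -0.04 against 0.02 and 0.11 in the second. Its step was 0.22 ± 0.044 (1.67-fold, adjusted p = 0.0550, 0.0230 with 12 arrays), and its S/G2 values were above its G1 values in both cycles. FKH1, its relative, lacked the 10 min value. With at least 3 of 4 values in each phase its step was 0.28 ± 0.048 (adjusted p = 0.0515). SWI5, which acts on M/G1 genes, gave 0.25 ± 0.066 (0.0915), and NDD1, the coactivator of the forkhead factors, 0.11 ± 0.037 (0.151). HCM1, a forkhead factor of S phase, had -0.11 ± 0.036 (0.136) and MCM1, the DNA-binding partner of these factors, 0.00041 ± 0.025 (0.995). The 11 measured factors had a median of 0.0073, 3 (27.27%) non-overlapping and higher and none lower.

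EGT2, DSE3 and AIM44 were lower on all 4 arrays of the first cycle than on any of the second. EGT2, a glycosylphosphatidylinositol-anchored protein of the cell wall, was at -1.02 and -1.22 on the G1 arrays against -1.14 and -1.05 on the S/G2 arrays of the first cycle, and 0.37 and 0.19 against -0.18 and -0.41 in the second. In the first cycle the 4 values lay close together far below the reference, and in the second both S/G2 values were below both G1 values. DSE3, a daughter-specific gene, was at -0.67 and -0.76 on the G1 arrays against -0.62 and -0.65 on the S/G2 arrays of the first cycle, and 0.41 and 0.18 against -0.17 and -0.30 in the second, with the same pattern. AIM44, a bud neck protein that is in no list, was the 1 gene called in the second cycle alone (0.0171% of 5842), where it fell by 0.57 on the log10 scale. It was at -0.54 and -0.53 on the G1 arrays against -0.45 and -0.36 on the S/G2 arrays of the first cycle, and 0.41 and 0.24 against -0.18 and -0.30 in the second. Its difference between the cycles had an adjusted p of 0.113, the smallest of all genes, and so did not pass.

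Of the genes that rose, SUR7 had the largest step. It encodes a plasma membrane protein of the eisosome, a patch under the membrane, and was at -0.72 and -0.47 on the G1 arrays against -0.07 and 0.24 on the S/G2 arrays of the first cycle, and -0.10 and -0.29 against 0.03 and 0.20 in the second. Its step was 0.50 ± 0.081 (SE), a 3.13-fold rise (adjusted p = 0.0498), with no overlap in either cycle and its highest values among these 8 arrays at 40 and 100 min. The 7 other eisosome genes, a family taken whole after these values were seen, did not share the step. Their values ran from -0.11 for LSP1 to 0.13 for NCE102, with -0.03 for PIL1, the main structural protein of the patch.

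GAS3, a member of the Gas family of wall proteins, was at -0.25 and -0.09 on the G1 arrays against 0.15 and 0.21 on the S/G2 arrays of the first cycle, and -0.37 and -0.17 against 0.09 and 0.16 in the second. It rose 2.36-fold (step 0.37 ± 0.051, adjusted p = 0.0444), with steps of 0.35 and 0.39 in the cycles. Of 25 measured cell wall genes 1 was called higher (GAS3) and none lower, and the median was 0.05. Among them 6 (24%) were non-overlapping and higher and 2 (8%) lower. CHS1, a chitin synthase that repairs the wall after separation, lay at the other end with -0.35 ± 0.073 (adjusted p = 0.0550), from 0.19 and -0.08 on the G1 arrays against -0.17 and -0.34 on the S/G2 arrays of the first cycle, and 0.38 and 0.20 against -0.0036 and -0.20 in the second. Of 21 mannosylation genes none was called, and 5 (23.81%) were non-overlapping and higher and 1 (4.762%) lower. OCH1, which begins the outer mannan chain, was at -0.16 ± 0.034 (adjusted p = 0.0567). Septin and bud neck genes split. KCC4, a septin-bound kinase, gave -0.28 ± 0.048 (0.0503) and BNI4, a septin-linked scaffold of chitin deposition, -0.22 ± 0.041 (0.0540), against the higher values of BUD3 and BUD4. Of the 13 measured members 3 (23.08%) were non-overlapping and higher and 2 (15.38%) lower, against 8.54% and 6.98% of all genes, and none was called. Among 21 polarity genes the counts were 3 (14.29%) and 4 (19.05%), again with none called. The largest step there was that of BUD9, a bud site landmark, at -0.16 ± 0.035 (adjusted p = 0.0551).

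The other 4 genes that rose were FRE4, AIM45, ENV9 and IDH1. FRE4, a ferric reductase, stayed below the reference throughout and rose 1.76-fold, with -0.81 and -0.73 on the G1 arrays against -0.51 and -0.43 on the S/G2 arrays of the first cycle, and -0.73 and -0.78 against -0.63 and -0.49 in the second (step 0.25 ± 0.038, adjusted p = 0.0498). AIM45, the alpha subunit of a mitochondrial electron transfer flavoprotein, rose 1.61-fold (0.21 ± 0.034, 0.0498) and ENV9, an oxidoreductase of lipid droplets, 1.54-fold (0.19 ± 0.03, 0.0498). IDH1, a subunit of the isocitrate dehydrogenase of the citric acid cycle, was above the reference on all 8 arrays, at 0.24 and 0.32 on the G1 arrays against 0.48 and 0.47 on the S/G2 arrays of the first cycle, and 0.23 and 0.16 against 0.36 and 0.36 in the second. It rose 1.52-fold (step 0.18 ± 0.029, adjusted p = 0.0498), and was the only one of 14 citric acid cycle genes to pass. The median of that group was -0.03, and SDH2, a subunit of succinate dehydrogenase, lay at -0.15 ± 0.046 (adjusted p = 0.118).

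Genes close to chromosome ends made up 4 of the 14 that fell. YLR464W, YLR462W, YFL065C and YPR202W had the smallest adjusted p of all genes, 0.0255 each, with falls of 2.02-, 1.96-, 1.95- and 1.94-fold. YLR464W was at 0.51 and 0.46 on the G1 arrays against 0.15 and 0.04 on the S/G2 arrays of the first cycle, and 0.24 and 0.27 against 0.10 and -0.02 in the second. All 4 are among the 5 genes nearest an end in the gene order of the reference table, where repeated sequences can let 1 spot take up RNA of several copies, so these may not be 4 independent measurements. After these values were seen, all 142 measured genes among the 5 nearest an end were counted, the 4 that prompted the count included. Of the 142, 4 were called lower and none higher, and 114 had a step below 0 and 28 above, with a median of -0.06. Non-overlapping were 45 (31.7%) lower and 3 (2.11%) higher. Among all genes the shares were 6.98% lower and 8.54% higher. Genes of this set make up 32 of the 78 non-overlapping genes that were lower by at least 1.5-fold. Repeated sequences may link spots across the whole set, so these counts may not be of independent measurements either.

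The YRF1 genes, which encode the helicase of the Y-prime elements next to telomeres, are near-identical copies. All 7 in the table were non-overlapping and lower, against 6.98% of all genes, with steps from -0.27 to -0.20 and a median of -0.21 (1.63-fold). None passed the test with 8 arrays (5 of 7 did with 12). Their spots may take up the same RNA, so these may not be 7 independent measurements. Lying next to telomeres, they may also count in the chromosome-end set above. YRF1-1 was at 0.47 and 0.51 on the G1 arrays against 0.26 and 0.10 on the S/G2 arrays of the first cycle, and 0.49 and 0.32 against 0.27 and 0.06 in the second (step -0.27 ± 0.059, adjusted p = 0.0552). Its levels stayed above 0 on all 8 arrays, as did the median of the family.

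Hexose transporters, also taken as a whole family after values were seen, held 1 of the genes that fell and the gene with the largest step of all in size. HXT2, a high-affinity glucose transporter, was at 0.52 and 0.46 on the G1 arrays against 0.13 and -0.27 on the S/G2 arrays of the first cycle, and 0.36 and 0.16 against -0.0077 and -0.34 in the second. Its step of -0.50 ± 0.096 (3.16-fold) was non-overlapping in both cycles and had an adjusted p of 0.0550 (0.0349 with 12 arrays). HXT5, a transporter known from slow growth, fell 1.499-fold (step -0.18 ± 0.027, adjusted p = 0.0498), with -0.04 and -0.11 on the G1 arrays against -0.19 and -0.21 on the S/G2 arrays of the first cycle, and 0.15 and 0.13 against -0.07 and -0.11 in the second, and unlike most called genes had the larger step in the second cycle. It gave an adjusted p of 0.147 with 12 arrays, and it falls outside the rule by which genes were named. HXT3 had -0.25 ± 0.055 (0.0566), HXT8 -0.30 ± 0.065 (0.0551), and HXT6 and HXT7, whose near-identical sequences cannot be told apart here, -0.32 ± 0.06 and -0.29 ± 0.056. HXT1, the low-affinity transporter, stood at 0.0019 ± 0.036, and the sensors SNF3 and RGT2 at -0.07 ± 0.026 and -0.01 ± 0.024. Of the 19 members 1 was called lower and none higher, and 16 had a step below 0 and 3 above. Non-overlapping were 6 (31.58%) lower and none higher.

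RBH2 was the remaining gene that fell, 1.62-fold (step -0.21 ± 0.029, adjusted p = 0.0444), mainly in the first cycle (-0.33 against -0.09).

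Groups of growth and metabolism held 1 called gene, IDH1. The 34 ribosome assembly genes, which process rRNA, had a median step of 0.06 with 31 above 0. None was called, and 3 (8.82%) were non-overlapping and higher and none lower, against 8.54% and 6.98% of all genes. Their median was 0.13 in the first cycle and 0.01 in the second. All 9 RNA polymerase I subunit genes were above 0, with a median of 0.06 and none called or non-overlapping. The 134 cytosolic ribosomal protein genes had a median of 0.00024, with 67 above and 67 below 0, none called, and 2 non-overlapping and higher and 5 lower, 1.49% and 3.73% of them, against 8.54% and 6.98% of all genes. The median was -0.04 for 34 respiratory chain genes, with 5 (14.71%) non-overlapping and lower and none higher. It was -0.07 for 21 methionine and sulfur genes, with 2 (9.52%) lower and 1 (4.76%) higher. Medians were 0.03 for 20 heat shock genes, -0.01 for 15 phosphate genes, -0.0091 for 18 glycolysis genes and 0.0008 for 24 fatty acid and ergosterol genes. None of these 6 groups held a called gene. The 29 pheromone response genes, which had a median level of 0.48 on the 0 min array, had a median step of -0.02. Of the 29, 21 had a step below 0, none was called, and 2 (6.9%) were non-overlapping and higher. AGA1, a mating agglutinin gene, had their largest step in size, -0.26 ± 0.15 (adjusted p = 0.358). It was at 1.42, 0.80 and -0.06 at 0, 10 and 20 min, and stepped by -0.56 in the first cycle and 0.03 in the second. In the first cycle, time since the arrest and the change of phase cannot be told apart. Of 11 condensin and Smc5/Smc6 genes none was called and the median was 0.02, and the 13 B-type cyclins and regulators, with CLB6 the 1 that fell, ranged from -0.47 to 0.41.

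**Figure D4:**
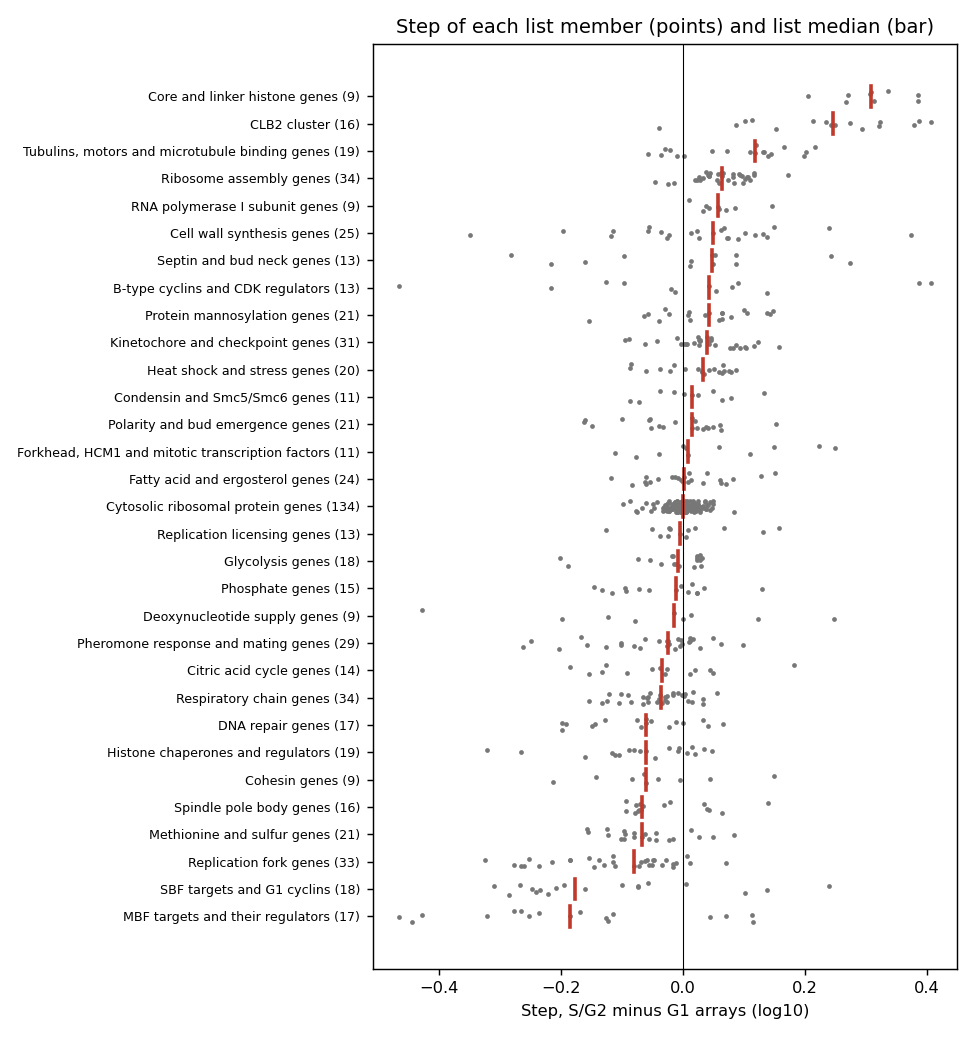
The step of each measured gene (points, log10, S/G2 minus G1 arrays, x axis) is shown for 31 gene groups (y axis, number of genes in brackets), with a bar at the group median. Groups are ordered by that median, from the histone genes at 0.31 and the CLB2 cluster at 0.25 to the SBF group at -0.18 and the MBF group at -0.19.

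Steps were then set side by side between the cycles, with each cycle's own 4 arrays. In the first cycle 125 genes passed (2.14% of 5842), 41 higher (0.702%) and 84 lower (1.44%). In the second, AIM44 alone passed (0.0171%), while 145 genes higher and 134 lower had an unadjusted p under 0.05. Across the 5842 genes the steps of the cycles correlated with Pearson's r of 0.442 and Spearman's rho of 0.379. Genes are not independent replicates, and all arrays share 1 culture and 1 reference. The steps were wider in the first cycle, with an SD over genes of 0.103 against 0.0616. The sign was shared by 3625 genes (62.1%).

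Genes called in the first cycle mostly kept their sign in the second. Of the 41 called higher, 34 (82.9%) had a step above 0 in the second cycle, and 23 (56.1%) had both S/G2 arrays above both G1 arrays there, against 18.4% of all genes. Of the 84 called lower, 73 (86.9%) were below 0. Of these 84, 47 (56.0%) had both S/G2 arrays below both G1 arrays, against 17.1% of all genes. The spread behind the first-cycle calls includes the differences between neighbouring second-cycle arrays. Genes whose second-cycle pairs lie close together are thus favoured for a call, and such pairs also overlap less easily. The excess over 18.4% and 17.1% is therefore not an independent check. How much of it comes from this selection was not tested. Among the 20 genes called for the step over both cycles, 18 had the smaller step in the second, and the median ratio of the second step to the first was 0.538. GAS3 and HXT5 were the exceptions.

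The difference between the cycles was tested in the same fit. No gene of 5842 passed (0%), with 448 (7.67%) at an unadjusted p under 0.05 and a smallest adjusted p of 0.113. The smaller steps of the second cycle are therefore a description of these arrays. Leaving out the 20 min array gave 8 genes with a difference above 0 (second minus first cycle), and leaving out the 80 min array gave 9 with one below 0.

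**Figure D5:**
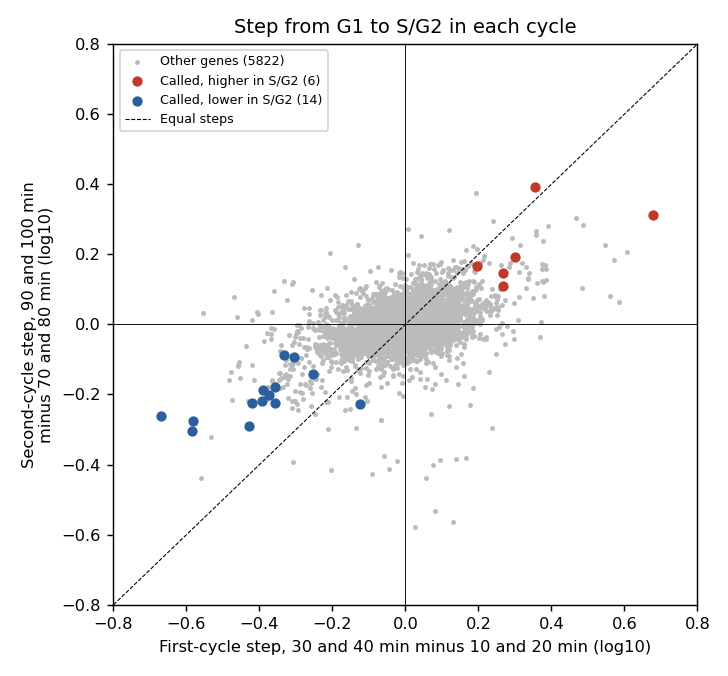
Each point is 1 of 5842 genes, with its step in the first cycle (x axis, log10) against its step in the second (y axis, log10). The 6 genes called higher are red and the 14 called lower blue, and the dashed line marks equal steps. Of the called genes, 18 lie nearer 0 in the second cycle than in the first.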

How the data were processed

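The deposited table holds log10 ratios of 13 two-colour arrays, Cy5 sample over Cy3 reference per the labels, with the base inferred from 18 values at exactly 2 or -2 (100-fold), where the largest other value is 1.61. How the authors corrected, normalised and limited these log10 values before deposit is unknown, being not given in the sources used here. No spot brightness was used, so signal over background is unknown and the number of arrays limits the precision. Of 6217 rows, 12 controls were left out and 6205 genes kept, of which 5704 took a symbol from the RefSeq table of assembly R64, used for names and gene order only.

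Values at 2 or -2 were set to missing (6 on the 8 arrays), each array was centred on its median, and 5842 genes with all 8 values were fitted in limma 3.58.1 (R 4.3.3, lmFit and eBayes) with 4 means, 1 for each phase in each cycle, leaving 4 residual degrees of freedom. Tests are two-sided, adjusted by Benjamini-Hochberg over 5842 genes with a threshold of 0.05. The median SE was 0.0303 for a step over both cycles and 0.0429 within 1. Each array held 6097 to 6176 values, deposited array medians lay between -2.6e-05 and 0.00687, and neighbouring arrays correlated across genes with r of 0.705 to 0.851 within a phase and of 0.859 (20 and 30 min) and 0.843 (80 and 90 min) across the border between phases. The fit was tested on simulated data.

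Genes were named by rule: YOX1 and YHP1, up to 12 called genes of largest step in each direction, and for each of 32 lists up to 4 called members or, with none, the member of largest step, 45 in all. Other named genes, the hexose transporter, YRF1, eisosome and chromosome-end sets and the count of non-overlapping genes were chosen after values were seen. The arrays, lists and rule were themselves chosen with earlier results of these data known. Alternatives changed the normalisation, the limit, missing values, the model, the arrays, the moderation, the weights and the fold. Sequences were not used here. Of the lists, 1 and a few single genes are not reported here.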

Additional observations from a re-analysis of the deposited data

Results flagged for a closer look

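Of 90 groups of 4 arrays tested for an array far from the others (45 named genes on the G1 and on the S/G2 arrays), 1 was singled out, where chance gives about 1 in 20. It was AGA1, which encodes the anchor subunit of the agglutinin of a cells, on the S/G2 arrays. Its log10 ratio was -0.13 at 90 min (-0.1265), while the 30, 40 and 100 min arrays lay between -0.19 and -0.18, so that the gap took up 0.862 of the range. The cause was not tested.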

How the results depend on the processing

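All counts of calls for the step depended on the settings, and few kept their size. For genes called higher and lower over both cycles, 6 and 14, the values as deposited gave 10 and 27, quantile normalization 1 and 0, values at the limit kept 1 and 5, at least 3 of 4 values in each phase 1 and 6, arrays 20 min apart as pairs 1 and 8, array weights 1 and 3, 12 arrays 106 and 114, and phase plus cycle as well as phase alone 0 and 0. Robust moderation gave 9 and 22, and the rule without p-values, added after the data were seen, 499 and 408, or 36 and 78 with 1.5-fold. Of the 20 genes, 20 were also called with the values as deposited, 18 with 12 arrays, 17 with robust moderation, 7 with at least 3 of 4 values, 6 with the limit kept, 4 with array weights, 2 with pairs and 1 after quantile normalization. Leaving out 1 array gave 0 to 136 higher and 0 to 172 lower. In the first cycle, 41 and 84 became 159 and 201 with 12 arrays, 14 and 34 with the limit kept, 0 and 0 with array weights and with quantile normalization, and 0 to 158 and 0 to 245 without 1 array. In the second, 0 and 1 became 0 and 0 with 12 arrays and 0 to 1 and 0 to 11 without 1 array. The difference between cycles, 0 and 0, became 0 to 8 and 0 to 9 without 1 array. The counts of non-overlapping genes, 499 and 408, were 603 to 927 and 506 to 752 without 1 array, where fewer arrays must stand apart. The step of YOX1, 0.0052, ran from -0.0695 to 0.0799 without 1 array, and was -0.0005 with the array of 20 min left out, -0.0695 with 70 min, -0.0246 with 30 min and -0.0058 with 90 min. Over 45 named genes and 810 comparisons with alternatives, 4 changed sign (those of YOX1), 217 lost a call, and 25 gained one. The causes were not tested. The spread between cultures cannot be known from 1 array per time point.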
